A study of Mus musculus with 84 samples.

Results

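The gene expression of mammary tumors from MMTV-Neu transgenic mice was set against that of mammary glands from virgin mice without a transgene. The samples were chosen by their titles and comprised 17 of the 84 samples of the series, 12 Neu tumors and 5 virgin glands. The tumors were collected at 32 to 60 weeks of age from mice in which elements of the mouse mammary tumor virus (MMTV) drive a rat cDNA of the wild-type Neu protein, mainly in mammary epithelium. The virgin glands came from nontransgenic mice 9 weeks old, and both groups were on the FVB background and carried no other allele or agent that the labels give. Age, genotype and tissue therefore differ together between the groups and cannot be told apart. Also used for orientation were 23 tumors of MMTV-Wnt-1 mice of mixed, mostly FVB background (9 to 56 weeks of age). The study found Ha-Ras mutations in most of those that it sequenced. Transgene and strain background differ together between Neu and Wnt-1 tumors and cannot be told apart, and the age ranges differ as well. The study held background unlikely to account for the differences between these tumors, but could not exclude it for some genes. Further context came from 7 hyperplastic glands of MMTV-Wnt-1 mice of 9 weeks and 3 samples of intestinal fat from virgin FVB mice of 12 weeks. Each sample RNA was labeled with Cy5 and hybridized to a spotted mouse cDNA array of 15360 clones together with a Cy3-labeled common reference RNA, a mixture from several organs and the lactating mammary gland. Every value below is a log2 ratio of a sample to that reference, so it can be compared between samples for one gene but not between genes. Clones that carried the same single symbol were averaged, which gave 7766 genes. The fold of a gene is therefore a mean over its clones, which could differ in size also where this is not stated. The labels do not say how the tumors were dissected, and give each array a number of its own without saying that each is a separate animal, so the p-values measure the spread between these samples.

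Neu (ErbB2, HER2) is a receptor tyrosine kinase of the epidermal growth factor receptor family that pairs with other members of the family and signals through the Ras/MAPK and PI3K pathways. Overexpression of this receptor in the mouse mammary gland gives rise to tumors after a latency, and these tumors are built mainly of luminal epithelial cells. A virgin gland is a different mixture. Its epithelial ducts, an inner luminal and an outer myoepithelial layer, run through a fat pad that also holds blood vessels, fibroblasts, immune cells and a lymph node, and skeletal muscle lies next to it.

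The identity of the samples was examined first. No clone carried the symbol Erbb2 alone, so the gene of the transgene was not measured here and could not be used to check the labels. Markers of several tissues separated the groups. The mean log2 ratio of 5 adipocyte markers (Adipoq, Fabp4, Plin1, Cidec, Lpl) ran between -2.25 and -1.03 on the 12 Neu tumor arrays and between 2.45 and 2.62 on the 5 virgin gland arrays. The mean of 3 skeletal muscle markers ran between -1.22 and 0.17 in Neu tumors and between 2.66 and 3.27 in virgin glands, and that of 4 fibroblast markers between -2.51 and 0.34 in Neu tumors and between 1.16 and 1.86 in virgin glands. The means of the myoepithelial, brown adipocyte, endothelial and lymphocyte markers and the nerve marker Mbp were likewise lower on every Neu tumor array than on every virgin gland array, while those of the macrophage, red blood cell and lung markers overlapped. Of 5 luminal markers listed, 2 were on the array, and they moved in opposite directions: Cdh1 (E-cadherin) was higher and Krt19 (keratin 19) lower in Neu tumors. Their mean ran between -2.64 and -0.53 in Neu tumors and between -0.44 and 0.67 in virgin glands. Neu tumors 67 and 68 had the widest spread of log2 ratios in their group (SD 1.2 and 1.18, against 0.898 to 1.05 for the other 10 Neu tumors), and correlated less well with those 10 (r between 0.629 and 0.776) than the 10 did among themselves (r between 0.756 and 0.891). They held 34 and 29 clones with a ratio over 100, against 9 such values on the other 10 tumor arrays together. The arrays of Wnt-1 tumors 42 and 49 were wider still (SD 1.78 and 1.36, with 247 and 161 ratios under 0.01). On the array of fat sample 44 the SD was 2.59, so fat is given below by its other 2 samples, 45 and 46.

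In all, 2081 of 7766 genes (26.8%) rose and 2239 (28.8%) fell in Neu tumors relative to virgin glands (limma, Benjamini-Hochberg adjusted p under 0.05 over all genes). Changes of at least 3-fold were fewer, with 197 genes (2.54%) up and 414 (5.33%) down. Clone by clone, 3831 (24.9%) of 15360 were higher and 4192 (27.3%) lower, of which 431 (2.81%) and 896 (5.83%) by at least 3-fold. The median difference over all genes was 0.00748 on the log2 scale. In 912 genes (11.7%) every Neu tumor lay above every virgin gland, and in 1242 (16.0%) every Neu tumor lay below. Arrays of the groups resembled each other little, with a median correlation over clones of 0.268 between a Neu tumor and a virgin gland, against 0.811 between Neu tumors, 0.864 between virgin glands and 0.732 between a virgin gland and fat. Counts of list members below are read against the shares of 26.8% and 28.8%. Lists and members were chosen with earlier results of these data known, so the counts are descriptions and not tests.

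**Figure D1:**
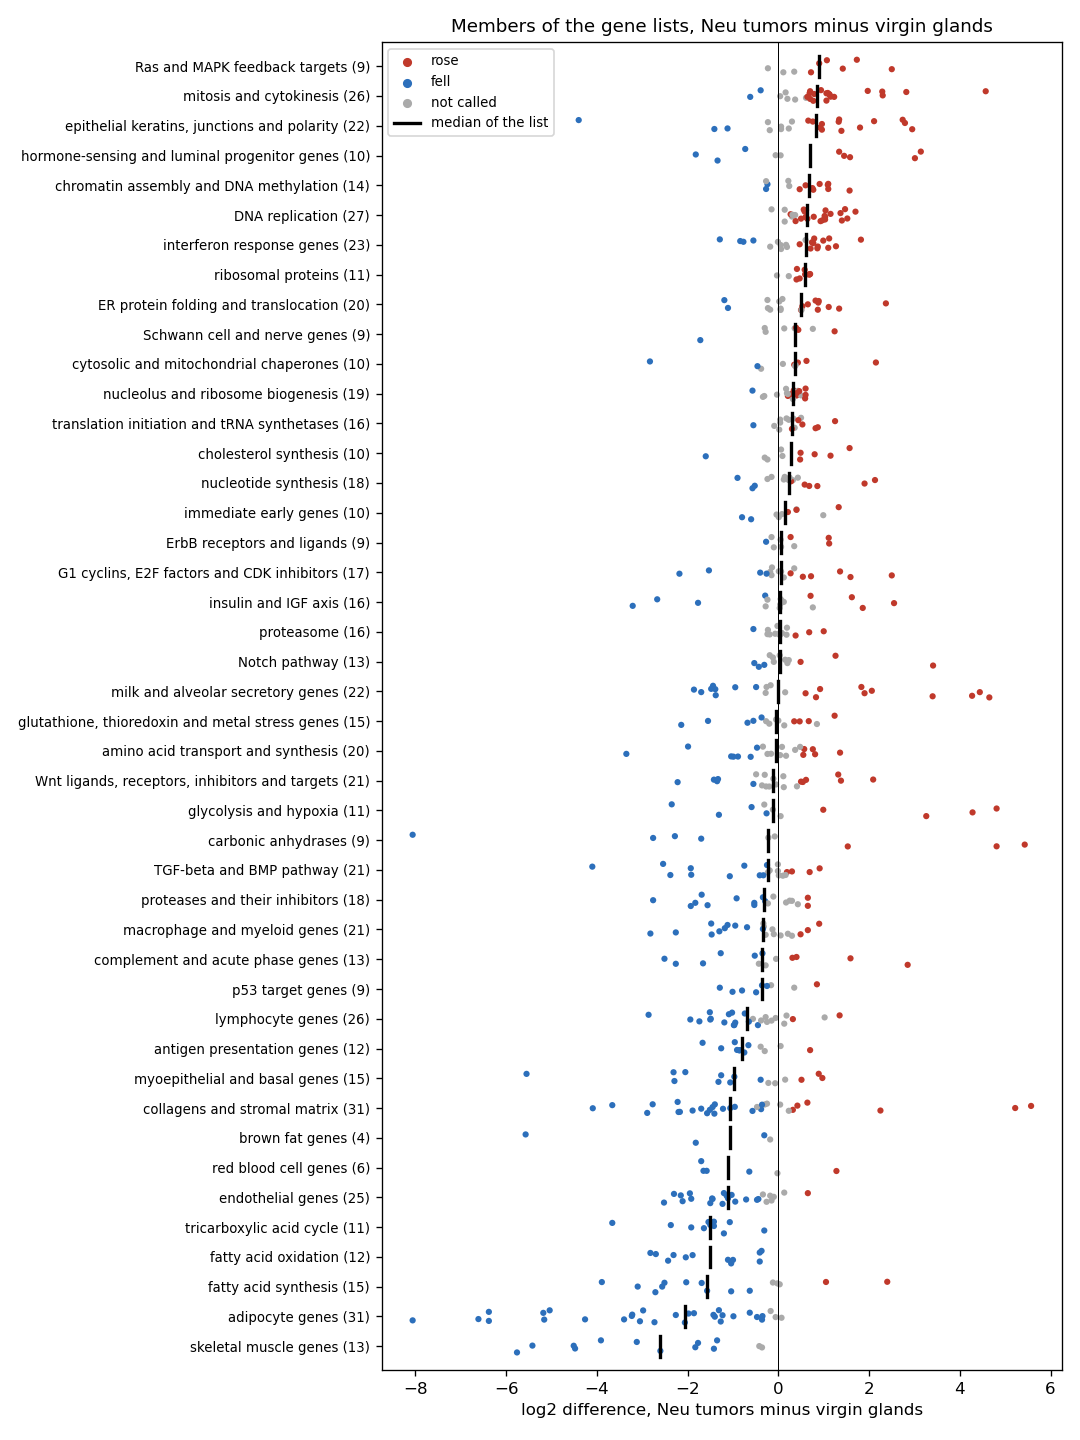
Log2 difference (Neu tumors minus virgin glands, x axis) of each member of 44 gene lists, 1 row per list with its number of measured genes in brackets; points right of 0 are higher in Neu tumors, red points rose, blue points fell, grey points did not pass adjusted p under 0.05, and black bars are list medians (vertical jitter has no meaning). Lists of muscle, adipocyte, fatty acid synthesis and mitochondrial fuel genes lie lowest, with medians of -2.6 to -1.5, and lists of Ras/MAPK feedback targets, mitosis and epithelial junctions lie highest, with medians of 0.9, 0.86 and 0.84.

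Among genes measured by several clones that were each called the same way (597 genes), the largest rise was that of Spag5, which encodes a protein of the mitotic spindle. Its log2 ratio ran from 1.08 to 3.55 with a median of 2.76 in the 12 Neu tumors, and was -2.33, -2.24, -1.76, -1.74 and -1.85 in virgin glands 13, 17, 27, 28 and 29, the order in which virgin glands are given throughout. No tumor overlapped with a gland, and the mean difference was 4.57 ± 0.34 (SE), or 23.7-fold (adjusted p = 2.54e-09). Kcnn4, a calcium-activated potassium channel, ran from 2.38 to 3.69 with a median of 3.23 in Neu tumors and was -1.01, -0.76, -0.96, -1.34 and -1.20 in virgin glands. The channel thus stood above the reference RNA in every tumor and below it in every gland, an 18.4-fold difference (adjusted p = 4.92e-13). Hey1, a transcriptional repressor that responds to Notch signaling, was the most uniform of these genes across tumors, from 3.58 to 4.21 with a median of 3.98, against 0.67, 0.73, 0.58, 0.22 and 0.45 in virgin glands. It was 10.6-fold higher in Neu tumors (adjusted p = 4.22e-14), with 3.44 and 3.37 on its 2 clones on the log2 scale.

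The other rises of this kind were Ncald, which encodes the calcium sensor neurocalcin delta (13.4-fold), Socs2, a suppressor of cytokine and growth hormone signaling (10.5-fold), the nucleoside transporter Slc29a1 (9.77-fold), the GTPase activator Rap1gap (6.78-fold), the small GTPase Rab25 of epithelial recycling endosomes (6.7-fold), the calcium-activated chloride channel Ano1 (6.37-fold), the kinase Stk39 (5.87-fold), Igfbp5, which binds insulin-like growth factors (5.84-fold), and carboxypeptidase Cpd (5.7-fold). In each of these 9 genes every tumor exceeded every gland. Cpd was measured by 4 clones, with log2 differences of 2.74, 2.41, 2.62 and 2.29. The 2 clones of Socs2 were further apart, at 4.68 and 2.12. The Rap1gap values were not even among tumors: 10 lay between 2.13 and 3.14, while tumors 67 and 78 were at 0.48 and 0.05.

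Genes with a single clone have no second probe to set beside it. The largest rises among them were Dcaf12 (76.5-fold), the cartilage-type collagen gene Col11a1 (47.4-fold), the secreted carbonic anhydrase Car6 (43.1-fold), Npnt, an extracellular ligand of integrins (37.2-fold), and the membrane carbonic anhydrase Car12 (28.1-fold). Npnt is an example of a tight pair of groups, with tumors from 2.13 to 2.91 with a median of 2.59 and glands at -2.30, -2.62, -2.79, -2.84 and -2.76. The tumors spanned less than 1 log2 unit and stood above the reference RNA, and the glands stood below it. In contrast, Car6 ran from 3.85 to 7.51 with a median of 5.19 in Neu tumors, and was 0.13, 0.38, -0.33, -0.30 and -0.05 in virgin glands.

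At least 3-fold falls were more numerous than rises, and many were of genes known from fat cells. In whole tissue, fewer cells of a type and less RNA per cell cannot be told apart. Car3, a carbonic anhydrase abundant in adipocytes and muscle, ran from -6.24 to -2.57 with a median of -4.12 in Neu tumors, and was 3.70, 3.43, 3.87, 4.18 and 4.02 in virgin glands and 5.37 and 5.05 in fat. Its difference of -8.06 ± 0.42 on the log2 scale (adjusted p = 2.77e-11) came from 2 clones that gave -8.02 and -8.10. Fabp4, the fatty acid binding protein of adipocytes, was 83.2-fold lower and Lpl, lipoprotein lipase, 36.2-fold lower in Neu tumors. Lpl ran from -2.94 to -2.27 in Neu tumors, and was 2.71, 2.47, 2.27, 2.70 and 2.52 in virgin glands. Next came Cav1, the scaffold of caveolae (35.8-fold lower, with -5.06, -5.40 and -5.03 on 3 clones), the carboxylesterase Ces1c (29-fold), the fatty acid desaturase Scd1 (14.8-fold), the ether lipid enzyme Agmo (13-fold), the fibrillar collagen gene Col3a1 (12.7-fold), the epoxide hydrolase Ephx2 (10.5-fold), the scaffold protein gene Ahnak (10.5-fold), glutamine synthetase, Glul (10.2-fold), and Pparg, the nuclear receptor that directs adipocyte differentiation (9.31-fold). Clones of a gene did not always give the same size: those of Scd1 gave -7.30, -0.51 and -3.85 and those of Pparg -5.05, -4.00 and -0.60 on the log2 scale.

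Of the single-clone genes, Nfatc2 (186-fold), Rusc1 (118-fold), Ces1d (103-fold), Adipoq (97.9-fold) and Ahnak2 (86.4-fold) fell most. Adipoq encodes adiponectin, a hormone secreted by fat cells, and was at 6.02 and 5.68 in fat. The clones named Nfatc2 and Rusc1 were likewise high in fat, at 4.97 and 4.90 and 4.87 and 4.77, and Ahnak2 was not, at -1.75 and -1.66. The symbols are those of the array's annotation, and the identity of a single clone was not tested further.

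**Figure D2:**
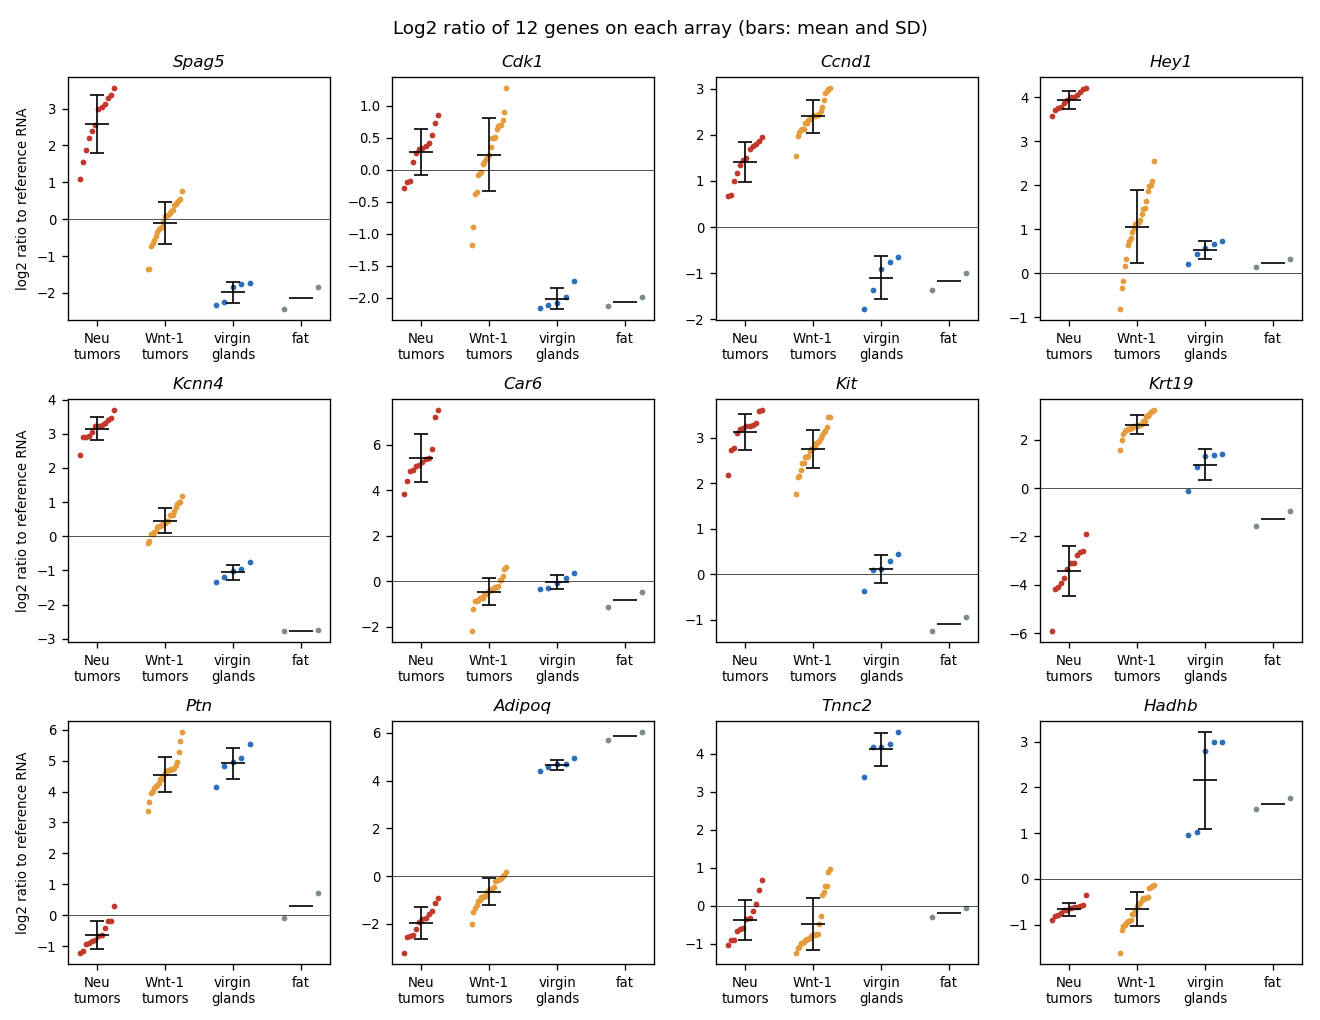
Log2 ratio to the reference RNA (y axis) of 12 genes on each array of Neu tumors (n = 12), Wnt-1 tumors (n = 23), virgin glands (n = 5) and fat (samples 45 and 46); points are arrays sorted by value within a group, and bars give the mean and SD (mean only for fat). Spag5, Hey1, Kcnn4 and Car6 stood higher in Neu tumors than in both virgin glands and Wnt-1 tumors, Cdk1 did not differ past the threshold between the tumor types, and Krt19 and Ptn were lower in Neu tumors than in the other mammary samples shown.

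Genes of cell division were higher in Neu tumors. Of 27 measured genes of DNA replication, 21 rose and 0 fell, with a median of 0.64 on the log2 scale, against 0.00748 over all genes. The group includes the flap endonuclease Fen1 (2.86-fold), thymidine kinase Tk1 (3.24-fold), the helicase subunit Mcm4 (2.04-fold), the single-strand binding protein Rpa1 (2.05-fold), the primase Prim1 (2.22-fold) and the clamp loader Rfc5 (1.96-fold). Fen1 ran from -1.21 to -0.57 with a median of -0.68 in Neu tumors and was -2.35, -2.42, -2.17, -2.21 and -2.27 in virgin glands. The groups did not overlap in 15 of the 27 genes, always with the tumors above. The marker means given above differ between the same arrays as these genes and the epithelial genes below, and their part in these results was not tested.

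Of 26 genes of mitosis and cytokinesis, 19 rose and 2 fell, with a median of 0.86. Cdk1, the kinase that drives entry into mitosis, ran from -0.29 to 0.85 with a median of 0.34 in Neu tumors, and was -1.74, -2.11, -1.99, -2.08 and -2.16 in virgin glands. That is a 4.91-fold rise (adjusted p = 1.46e-09), with all tumors above all glands. Ect2, which acts in cytokinesis, rose 3.91-fold, the kinase Nek2 of the centrosome 7.07-fold, Cks2, a small subunit of cyclin-dependent kinases, 2.34-fold, and Cenpa, the histone of centromeres, 2.18-fold. The kinesins did not move as one. Kif20a rose 4.89-fold, while Kif4 fell 1.54-fold and Kif20b 1.31-fold, a call for Kif20b that was not past the threshold without virgin gland 13, 27 or 29 (log2 differences of -0.26, -0.39 and -0.39) or after centring or quantile normalization of the arrays (-0.34 and -0.35). Kif4 ran from -0.60 to -0.14 in Neu tumors and was 0.35, 0.02, -0.10, 0.43 and 0.48 in virgin glands. It was also 3.02-fold lower in Neu than in Wnt-1 tumors (adjusted p = 1.28e-11).

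The promoters of the 4 mitotic genes of smallest adjusted p with a sequence at hand are shown, because genes of this phase often carry a CCAAT box and a cell cycle genes homology region (CHR) near their start. Each window holds 300 bases from upstream of the start site to a little after it, from RefSeq on build GRCm38.p6, and capitals mark CCAAT, the CHR letters TTTGAA or TTCGAA, and the E2F letters TTCCCGC or TTTGGCGC, each searched on both strands.
Ect2 (chr3:27153829-27154128, minus strand): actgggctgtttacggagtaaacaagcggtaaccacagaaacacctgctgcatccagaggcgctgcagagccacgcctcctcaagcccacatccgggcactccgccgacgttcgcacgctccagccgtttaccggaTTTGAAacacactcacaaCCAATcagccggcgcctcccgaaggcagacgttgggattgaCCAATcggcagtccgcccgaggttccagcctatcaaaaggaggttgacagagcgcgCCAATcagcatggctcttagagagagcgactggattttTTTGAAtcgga
Cks2 (chr13:51644982-51645281, plus strand): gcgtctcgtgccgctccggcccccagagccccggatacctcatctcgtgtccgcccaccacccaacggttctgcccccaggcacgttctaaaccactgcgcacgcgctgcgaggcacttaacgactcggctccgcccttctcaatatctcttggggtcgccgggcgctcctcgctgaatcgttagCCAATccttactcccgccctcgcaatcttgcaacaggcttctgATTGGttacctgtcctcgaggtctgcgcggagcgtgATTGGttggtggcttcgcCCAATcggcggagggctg
Cdk1 (chr10:69352863-69353162, minus strand): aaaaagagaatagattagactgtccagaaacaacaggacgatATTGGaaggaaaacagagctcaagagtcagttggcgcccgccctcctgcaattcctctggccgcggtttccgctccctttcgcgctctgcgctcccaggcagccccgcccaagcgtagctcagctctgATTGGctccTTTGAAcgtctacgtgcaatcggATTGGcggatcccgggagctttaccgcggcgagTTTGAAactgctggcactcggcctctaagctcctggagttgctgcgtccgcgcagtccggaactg
Spag5 (chr11:78301341-78301640, plus strand): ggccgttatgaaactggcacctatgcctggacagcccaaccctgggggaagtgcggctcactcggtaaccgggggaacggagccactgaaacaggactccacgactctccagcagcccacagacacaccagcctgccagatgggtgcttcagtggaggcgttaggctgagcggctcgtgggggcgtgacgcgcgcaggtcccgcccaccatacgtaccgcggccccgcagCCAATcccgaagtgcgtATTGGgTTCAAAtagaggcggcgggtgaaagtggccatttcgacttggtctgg
Ect2 and Cdk1 each held 3 CCAAT and 2 CHR matches, Spag5 2 and 1, and Cks2 4 CCAAT and no CHR match. Of the 23 listed mitosis genes with a window (1 window a gene, the first listed), 14 held CCAAT (60.9%), 15 a CHR (65.2%), 12 both (52.2%) and 1 an E2F match (4.35%). Among all 32851 windows the shares were 37.4%, 19.2%, 7.52% and 5.06%. These counts describe letters, and whether a factor binds there was not measured.

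The regulators of the G1 phase were split. Of 17 measured, 6 rose and 4 fell, shares near those of all genes. Cyclin D1 (Ccnd1), which acts downstream of mitogens, ran from 0.67 to 1.94 with a median of 1.48 in Neu tumors, and was -1.36, -1.78, -0.66, -0.77 and -0.90 in virgin glands, a 5.66-fold rise. Cyclin D2 (Ccnd2) moved the other way, 4.53-fold lower, from -2.63 to -1.26 with a median of -1.85 in Neu tumors against -0.15, 0.05, 0.50, 0.74 and 0.72 in virgin glands. Neither gene had a tumor within the range of the glands. The inhibitors of CDK4 and CDK6 also parted, Cdkn2d (p19) at 2.56-fold higher and Cdkn2c (p18) at 2.89-fold lower, and the repressor E2f8 rose 3-fold. Of 14 genes of chromatin assembly and DNA methylation, 9 rose and 2 fell, led by Uhrf1, which guides maintenance methylation (2.96-fold), the histone chaperone Chaf1b (2.14-fold), Hmgb2 (2.15-fold) and the histone acetyltransferase Hat1 (2.12-fold). The 3 Chaf1b clones gave log2 differences of 1.53, 0.07 and 1.69. None of the 14 genes fell after median centring or without virgin gland 28 or 29, and 1 fell without virgin gland 17 or after quantile normalization.

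The members of the receptor family itself were little represented. Of 9 measured genes of the ErbB list, 3 rose and 1 fell. Erbb3, the partner receptor with which ErbB2 forms its most active dimer, ran from 1.16 to 1.91 with a median of 1.5 in Neu tumors, and was 0.01, 0.53, 0.51, 0.33 and 0.53 in virgin glands. All 12 tumors exceeded all 5 glands (2.17-fold, adjusted p = 2.35e-07), and the level was also 1.41-fold above that of Wnt-1 tumors (adjusted p = 4.03e-05). Grb7, an adaptor that binds ErbB2 and lies next to its gene in human and mouse, rose 2.16-fold, with tumors from 0.34 to 1.28 and glands from -0.39 to -0.06. The adaptor Grb2 rose 1.21-fold and Egfr fell 1.21-fold, both with overlapping groups. The 2 Egfr clones disagreed in sign (0.11 and -0.65), and Egfr did not pass the test without virgin gland 29 (-0.24) or after median centring (-0.22). Shc1 (-0.15 ± 0.09, with -0.43 and 0.13 on its 2 clones) did not pass the test. Nor did the sheddases Adam10 (-0.10 ± 0.11) and Adam17 (0.05 ± 0.12), the inhibitor Lrig1 (0.06 ± 0.10) and the ligand Hbegf (0.35 ± 0.20).

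Of 9 genes known to respond to Ras and MAPK signaling, 6 rose and none fell, with a median of 0.9; the test was missed by Dusp4 (-0.23 ± 0.21), Spred1 (0.11 ± 0.16) and Hbegf. Dusp4 passed as a fall (-0.30) without Neu tumors 67 and 68. The 2 Dusp4 clones disagreed in sign (0.40 and -0.87), as did those of Spred1 (-0.11 and 0.33). The genes that rose were Ccnd1, Emp1 (3.31-fold), Myc (2.68-fold), the ETS factor Etv4 (2.1-fold), Phlda1 (1.87-fold) and the feedback inhibitor Spry1 (1.64-fold). Etv4 ran from 0.45 to 1.03 with a median of 0.67 in Neu tumors and was -0.34, -0.34, -0.34, -0.37 and -0.50 in virgin glands. The glands lay close together and under the lowest tumor. Against Wnt-1 tumors, however, Ccnd1 was 1.99-fold, Myc 1.96-fold and Etv4 1.39-fold lower in Neu tumors, Phlda1 was 1.37-fold higher (adjusted p = 0.000665), and the median difference of the 9 genes was 0.07. Most of the Wnt-1 tumors that the study sequenced carried Ha-Ras mutations, and the study lists cyclin D1 and c-Myc among reported targets of Wnt signaling. Whether either bears on these differences was not tested. Of 10 immediate early genes 3 rose, Ier2 among them (2.51-fold), and 2 fell. Of the 10, 1 rose without virgin gland 28 or 29, and 1 fell after quantile normalization.

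Epithelial genes were mostly higher in the tumors. Of 22 genes of keratins, junctions and polarity, 13 rose and 3 fell (median 0.84). The desmosomal cadherins Dsc2 and Dsg2 rose 7.73-fold and 4.33-fold, the epithelial transcription factor Ehf 6.93-fold, Rab25 6.7-fold, the membrane protease St14 3.49-fold, claudin 7 (Cldn7) 2.62-fold and E-cadherin (Cdh1) 2.53-fold. Dsc2 ran from 1.71 to 2.67 with a median of 2.09 in Neu tumors and was -0.57, -0.59, -0.90, -1.01 and -1.18 in virgin glands, without overlap.

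Keratin 19 ran against the list to which it belongs. Krt19, a keratin of simple epithelium, ran from -5.91 to -1.90 with a median of -3.22 in Neu tumors and was -0.14, 0.87, 1.40, 1.38 and 1.33 in virgin glands, a 21.1-fold fall (adjusted p = 2.81e-07). Wnt-1 tumors averaged 2.60 ± 0.39 (SD, n = 23), and the difference of Neu from Wnt-1 tumors was -6.04 ± 0.23 (adjusted p = 1.58e-21). Fat lay at -0.96 and -1.56, above every Neu tumor and below every virgin gland. Krt19 was measured by 1 clone. The junction genes Cldn4 (2.65-fold) and Ppl (2.17-fold) also fell, and Krt7 did not pass the test (-0.19 ± 0.22).

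Genes that mark the luminal subsets gave a mixed answer. Of 10 measured, 5 rose and 3 fell. Those that rose were the tetraspanin Tspan8 (8.82-fold), the receptor tyrosine kinase Kit (8.06-fold) and the transcription factors Sox9 (2.98-fold), Gata3 (2.74-fold) and Elf5 (2.54-fold), of which Kit, Sox9 and Elf5 are known from luminal progenitor cells. Kit ran from 2.19 to 3.61 with a median of 3.23 in Neu tumors and was -0.37, 0.13, 0.44, 0.10 and 0.29 in virgin glands. Those that fell were Mal (3.54-fold), Stc2 (2.52-fold) and the estrogen receptor gene Esr1 (1.66-fold), whose groups overlapped and whose 2 clones gave log2 differences of -1.55 and 0.10.

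Milk and alveolar secretory genes (milk and alveolar genes for short) moved both ways. This list also holds genes that do not encode milk proteins, such as Aldoc and Socs2. Of 22, 10 rose and 8 fell. Aldoc (25.1-fold), Lcn2, which encodes an iron-siderophore binding protein (21.7-fold), kappa-casein, Csn3 (19.3-fold), Socs2 (10.5-fold), Xdh, an enzyme of milk fat globules (3.72-fold), and Wfdc18 (3.57-fold, with log2 differences of -0.12 and 3.79 on its 2 clones) were higher in Neu tumors. Among those that were lower, Csn2 fell 2.61-fold, Csn1s2b 2.71-fold, Wap 2.78-fold, Glycam1 3.26-fold and Lpo 3.64-fold. After quantile normalization Csn2, Wap and Glycam1 no longer passed (log2 differences of -0.37, -0.41 and -0.47), and 5 of the 22 genes fell. Csn3 ran from 0.93 to 2.06 with a median of 1.57 in Neu tumors and was -2.81, -2.43, -3.19, -2.66 and -2.14 in virgin glands, while Csn2 ran from -6.83 to -3.33 with a median of -4.46 in Neu tumors and was -3.41, -3.00, -3.05, -3.38 and -3.17 in virgin glands. Kappa-casein thus rose above the reference RNA, which contains lactating gland, in every tumor, and beta-casein stayed below it in all samples of both groups. A cDNA clone can also bind transcripts of close paralogs, which bears on the caseins, the carboxylesterases, the Oas genes and the class II genes below.

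Myoepithelial and basal genes were lower as a group, 9 of 15 down and 3 up, with a median of -0.97. Pleiotrophin (Ptn), a secreted growth factor, ran from -1.24 to 0.29 with a median of -0.74 in Neu tumors and was 4.15, 4.82, 5.08, 5.54 and 4.96 in virgin glands. That was 46.9-fold lower than in virgin glands and a difference of -5.19 ± 0.19 from Wnt-1 tumors (adjusted p = 2.13e-22). The contractile protein genes Cnn1 (4.97-fold), Myh11 (2.4-fold) and Mylk (2.08-fold) also fell. So did the inhibitor of differentiation Id4 (4.89-fold) and the focal adhesion protein gene Tgfb1i1 (4.14-fold). The log2 differences of the 2 Mylk clones were -2.02 and -0.09. Krt14, the classical basal keratin, did not pass the test (-0.07 ± 0.13), and caldesmon (Cald1), which smooth muscle and other cells share, rose 1.96-fold, with 0.68, 1.41, 0.64, -0.03, 1.48 and 1.65 on 6 clones. Of these genes, Cnn1, Id4, Tgfb1i1, Myh11 and Mylk were all lower in Neu than in Wnt-1 tumors, by 13.7-fold, 67-fold, 8.53-fold, 2.68-fold and 2.31-fold.

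**Figure D3:**
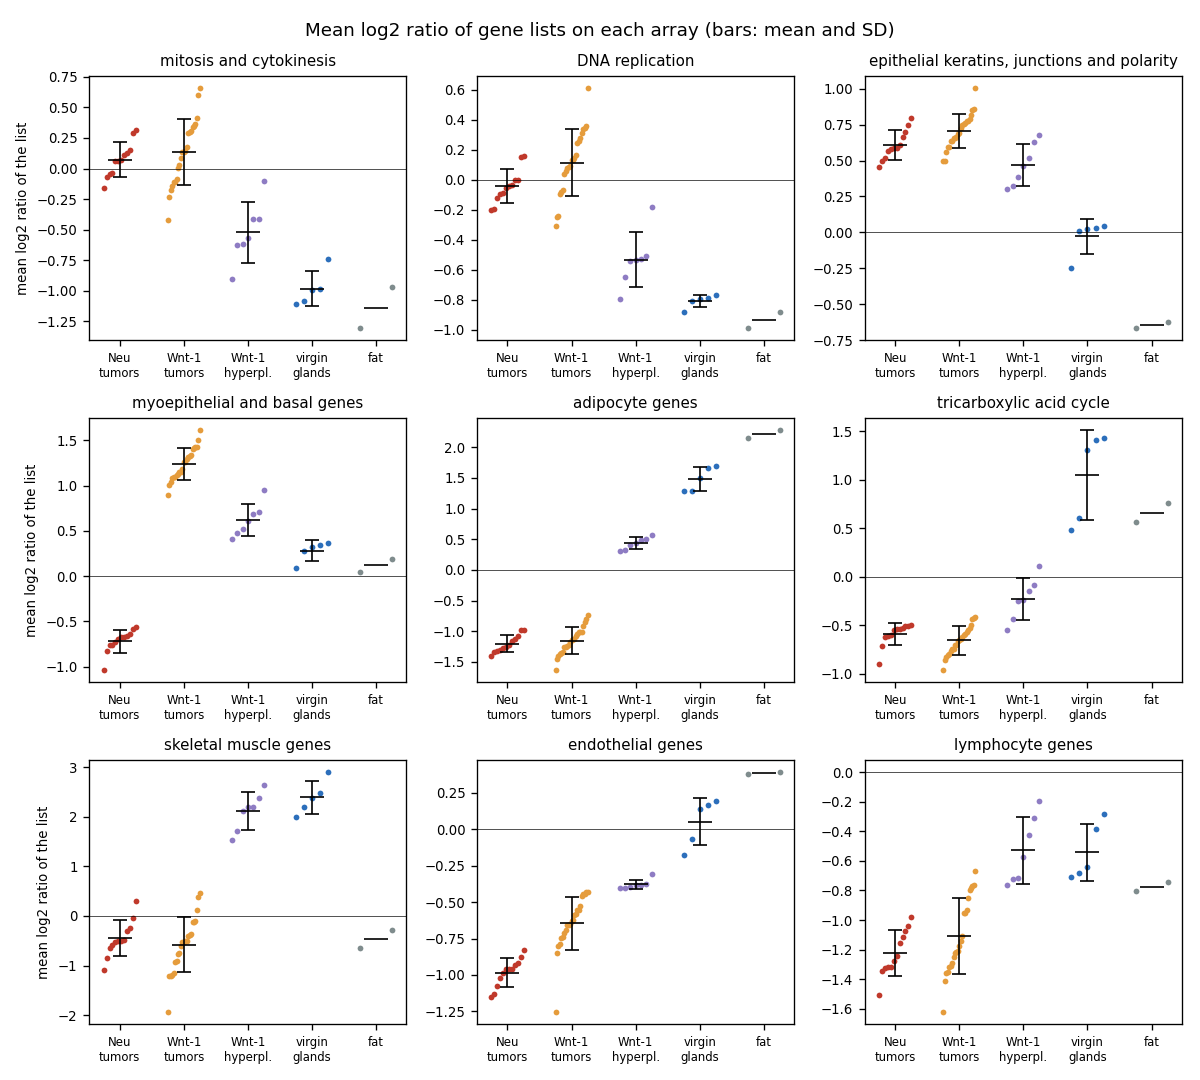
Mean log2 ratio over all measured members of 9 gene lists (y axis) on each array of Neu tumors (n = 12), Wnt-1 tumors (n = 23), hyperplastic glands of MMTV-Wnt-1 mice (n = 7), virgin glands (n = 5) and fat (samples 45 and 46); points are arrays sorted by value, bars the mean and SD (mean only for fat). Adipocyte genes lay between -1.41 and -0.98 in Neu tumors and between 1.29 and 1.7 in virgin glands, and skeletal muscle genes were high in the glands and low in tumors and fat.

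Adipocyte genes fell almost without exception. Of 31 adipocyte genes, 28 fell and none rose, with a median of -2.06 (a ratio of 0.24), and in 25 genes every tumor lay below every gland. Pck1 (-0.17 ± 0.20), Agt (-0.06 ± 0.27) and Apoc1 (0.07 ± 0.66) did not pass. Besides the genes above, the caveolar coat protein gene Cavin1 fell 19.1-fold, the amine oxidase Aoc3 8.26-fold, glycerol 3-phosphate dehydrogenase, Gpd1, 32.9-fold, and resistin, Retn, 83.1-fold. Aoc3 ran from -0.88 to -0.60 in Neu tumors, and was 1.70, 2.09, 2.62, 2.72 and 2.56 in virgin glands and 3.54 and 3.21 in fat. Lipid droplet genes were uneven, since Cidec fell 7.87-fold and Plin1 1.28-fold, and their 2 clones each differed (-5.73 and -0.23 for Cidec, -0.89 and 0.18 for Plin1).

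Cidea, a lipid droplet gene of brown fat, fell 47.7-fold, and unlike the genes above it was not high in intestinal fat (-1.20 and -1.51). Its ratio ran from -6.32 to -4.32 with a median of -4.90 in Neu tumors. The virgin glands were themselves uneven, at -0.62, -0.28, 0.71, 1.35 and 1.38. Ucp1, which makes heat in brown fat, did not pass the test (-0.18 ± 0.14).

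Enzymes of lipid and energy metabolism fell together with the adipocyte genes. Of 12 genes of fatty acid oxidation all 12 fell (median -1.5), and of 11 genes of the tricarboxylic acid cycle all 11 fell (median -1.5). After median centring, or without virgin gland 27, 28 or 29, 10 of the 12 oxidation genes fell. Hadhb, a subunit of the trifunctional protein, ran from -0.89 to -0.35 with a median of -0.65 in Neu tumors, and was 0.97, 1.03, 2.79, 2.98 and 2.99 in virgin glands. The tumors were within 1 log2 unit of each other, while glands 13 and 17 lay well under glands 27, 28 and 29. The dienoyl-CoA reductase Decr1 (6.49-fold), the electron transfer flavoprotein subunit Etfb (5.39-fold), pyruvate carboxylase, Pcx (12.6-fold), the succinate dehydrogenase subunit Sdhb (5.19-fold) and citrate synthase, Cs (3.78-fold), showed the same direction. Citrate synthase ran from -2.26 to -0.74 with a median of -0.93 in Neu tumors and was 0.03, -0.27, 1.65, 1.5 and 1.26 in virgin glands. Against Wnt-1 tumors 3 of the oxidation genes were higher and 4 lower in Neu tumors (median -0.02), and 4 of the cycle genes were higher and 3 lower (median 0.13). The differences of 0.00 ± 0.11 for Hadhb, 0.00 ± 0.07 for Decr1 and -0.31 ± 0.14 for Cs did not pass.

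The mean of the tricarboxylic acid cycle genes ran from -0.9 to -0.5 in Neu tumors, and was 0.605, 0.48, 1.31, 1.43 and 1.41 in virgin glands. The brown fat genes were likewise lower in glands 13 and 17 than in the other 3, with means from -3.05 to -2.05 in Neu tumors against -1.29, -1.11, -0.499, -0.282 and -0.241 in virgin glands. Lists outside fuel and fat genes split the glands the same way. Cholesterol synthesis had means of -0.927 and -0.987 in glands 13 and 17, and -0.488, -0.496 and -0.375 in glands 27, 28 and 29. Translation genes had -0.423 and -0.356 against -0.103, -0.095 and -0.039. Not all lists did, as DNA replication had -0.787 and -0.881 against -0.811, -0.799 and -0.772. Fits that leave out 1 gland do not remove this split, and its cause was not tested. In fat the cycle genes were at 0.76 and 0.562. The part of fat and muscle cells in these falls was not tested.

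Fatty acid synthesis was lower too, 10 of 15 genes down and 2 up. Fatty acid synthase, Fasn, fell 5.69-fold, ATP citrate lyase, Acly, 5.9-fold, acetyl-CoA carboxylase, Acaca, 4.08-fold, and acetyl-CoA synthetase, Acss2, 8.59-fold. The Fasn clones gave log2 differences of -3.86, -3.3 and -0.37, and the Acaca clones -1.74, -0.45 and -3.9. Srebf1, the transcriptional activator of these enzymes, was among the genes that rose, 5.26-fold, from 1.70 to 3.25 with a median of 2.89 in Neu tumors against 0.07, 0.12, 0.61, 0.37 and 0.41 in virgin glands. It was also 5.4-fold higher than in Wnt-1 tumors (adjusted p = 8.83e-16). The citrate carrier Slc25a1 was called as a rise (2.07-fold) on the mean of clones that disagreed, with log2 differences of -1.21, -0.32 and 4.69. In cholesterol synthesis 5 of 10 genes rose, Dhcr7 by 2.97-fold and Sqle by 2.22-fold, and 1 fell, Hmgcs1 (3.04-fold).

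Glycolysis and hypoxia genes had no common direction, 4 of 11 up and 4 down (2 down without virgin gland 17 or after median centring). Hexokinase 1 (Hk1) ran from 2.13 to 2.72 with a median of 2.56 in Neu tumors and was -1.04, -0.81, -0.72, -0.60 and -0.51 in virgin glands, a 9.61-fold rise (adjusted p = 3.07e-14). Egln3, an oxygen-sensing prolyl hydroxylase, was 19.4-fold and Car12 28.1-fold higher, while the hypoxia-responsive Bnip3 and Ndrg1 fell 5.1-fold and 2.49-fold. Amino acid genes were also divided (5 up, 7 down of 20, and 8 up after quantile normalization). Glutamine synthetase fell as given above, the glutamine transporter Slc1a5 fell 3.96-fold on 3 concordant clones, and the proline synthesis enzyme Aldh18a1 rose 2.57-fold. Among 18 genes of nucleotide synthesis, 6 rose, deoxycytidine kinase, Dck, among them (4.37-fold), and 3 fell, with Hprt at 1.86-fold lower.

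Skeletal muscle genes were another group with lower ratios in the tumors. Of 13 measured, 11 fell and none rose, with the lowest median of all lists, -2.6. The fast troponin Tnnc2 ran from -1.03 to 0.67 with a median of -0.46 in Neu tumors, and was 4.57, 4.27, 4.17, 3.40 and 4.17 in virgin glands and -0.07 and -0.30 in fat. The fast myosin light chain Mylpf fell 54-fold, glycogen phosphorylase, Pygm, 22.8-fold, and the calcium pump Atp2a1 15-fold. Creatine kinase, Ckm, fell 6.05-fold, with 2 clones at -5.28 and 0.09. Fat 45 and 46 were low for Mylpf, at -2.74 and -1.77, so for this gene the glands differed from fat as well as from the tumors. Of 9 Schwann cell and nerve genes, 3 rose and 1 fell, the myelin gene Mbp (3.3-fold). Of these 9, 1 rose without virgin gland 17, 28 or 29, and 5 rose without Neu tumors 67 and 68 or after quantile normalization. Of 6 red blood cell genes 4 fell, Alas2 among them (1.56-fold, groups overlapping, and not past the test without virgin gland 13 or 29, at -0.57 each). The lung marker Sftpc did not pass the test (-1.07 ± 0.61) and Scgb1a1 fell 1.85-fold. Both lay below the reference RNA in both groups, with Sftpc from -6.80 to -1.82 in Neu tumors and from -5.29 to -2.30 in virgin glands, and Scgb1a1 from -8.20 to -6.32 in Neu tumors and from -7.00 to -5.99 in virgin glands.

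Stromal matrix genes fell more often than they rose, 20 against 6 of 31, with a median of -1.06, and 3 rose without virgin gland 13. Lumican (Lum), a proteoglycan of fibrillar collagen, fell 17-fold, Col3a1 12.7-fold, the basement membrane linker Nid1 7.43-fold, Efemp1 4.67-fold and dermatopontin (Dpt) 3.69-fold. Lum ran from -3.03 to 0.48 with a median of -1.54 in Neu tumors, and was 2.47, 3.09, 2.64, 2.65 and 2.56 in virgin glands and 2.84 and 2.36 in fat. The spread among tumors was wide but stayed below the lowest gland. Col1a1 did not pass the test, at -0.25 ± 0.53, and its glands were themselves spread from -1.88 to 0.35. The matrix genes that rose at least 3-fold were Col11a1, Npnt and Col9a1 (4.77-fold), and the 2 Col9a1 clones disagreed, with log2 differences of 5.10 and -0.60. Col11a1 ran from 2.86 to 5.33 with a median of 4.54 in Neu tumors and was -1.83, -2.09, -0.12, -1.08 and -0.86 in virgin glands, and it was 9.87-fold higher than in Wnt-1 tumors (adjusted p = 8.39e-09). Npnt was 24.6-fold higher than in Wnt-1 tumors (adjusted p = 8.96e-25).

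Among 18 proteases and inhibitors 10 fell, including Timp2 (6.76-fold), the gelatinase Mmp2 (3.81-fold), cystatin C, Cst3 (3.55-fold), and Timp4 (3.23-fold), and 2 rose, the cathepsins Ctsh (1.57-fold) and Ctss (1.57-fold). The 2 Mmp2 clones gave log2 differences of -0.7 and -3.16. Endothelial genes were lower, 18 of 25 down and 1 up, with a median of -1.11. VE-cadherin (Cdh5) fell 2.84-fold over 4 clones, Esam 3.8-fold, the angiopoietin receptor Tek 3.86-fold and endothelial nitric oxide synthase, Nos3, 2.74-fold. The clones fell by unequal amounts, with log2 differences of -2.48, -0.38, -2.33 and -0.83 for Cdh5. They were -2.06, -0.79 and -2.92 for Esam and -1.01 and -2.89 for Tek. Cdh5 ran from -1.65 to -1.18 with a median of -1.42 in Neu tumors and was -0.07, 0.04, 0.11, 0.23 and 0.21 in virgin glands. The tight junction gene Cldn5 was the exception (1.57-fold higher). Cdh5, Esam and Tek were lower in Neu than in Wnt-1 tumors as well (1.45-fold, 1.44-fold and 1.39-fold), whereas the Nos3 difference of -0.11 ± 0.17 did not pass, except without Wnt-1 tumors 42 and 49 (-0.22).

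Secreted regulators of growth moved both ways. In the TGF-beta and BMP list 10 of 21 genes fell and 4 rose. The activin antagonist Fstl3 fell 17.1-fold, Fstl1 5.82-fold, the matrix protein gene Tgfbi 5.19-fold, the co-receptor Tgfbr3 3.81-fold and the latent binding protein Ltbp4 3.78-fold, while the ligand Tgfb2 rose 1.88-fold. Igf1, a growth factor made by stroma and fat, ran from -4.54 to -2.90 with a median of -3.64 in Neu tumors and was -0.64, -0.59, -0.06, -0.24 and -0.38 in virgin glands. It was 9.27-fold lower (adjusted p = 3.08e-10). Its binding proteins Igfbp6 and Igfbp3 fell 6.35-fold and 3.42-fold, and Igfbp5 and the clearance receptor Igf2r rose 5.84-fold and 3.08-fold, so that the IGF list as a whole stood at 4 up and 4 down of 16.

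Lymphocyte genes fell in 15 of 26 cases and rose in 2 (1 without virgin gland 27 or 29), with a median of -0.7. The immunoglobulin heavy chain gene Ighm ran from -5.18 to -4.21 with a median of -4.79 in Neu tumors and was -2.11, -2.10, -1.53, -1.68 and -1.97 in virgin glands, 7.26-fold lower (adjusted p = 5.54e-11). The B cell genes Ms4a1 (3.84-fold) and Cd79b (3.33-fold) and the T cell gene Cd8a (2.85-fold) fell as well. Not all lymphocyte genes did: Cd3e did not pass (0.18 ± 0.11), and Jchain, the joining chain of polymeric immunoglobulins, rose 2.56-fold, from -0.25 to 2.26 in Neu tumors against -0.51 to 0.21 in virgin glands. Pigr, the epithelial receptor that carries such immunoglobulins, rose 4.16-fold with overlapping groups.

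Of 21 macrophage and myeloid genes 10 fell and 3 rose. The general markers Cd68 (0.21 ± 0.21) and Adgre1 (-0.13 ± 0.22) did not pass, whereas the lectins Clec10a and Mrc1, known from tissue macrophages, fell 7.04-fold and 2.78-fold. For Clec10a, the tumors ran from -2.23 to 1.46 with a median of -0.94 and the glands were 1.22, 1.63, 2.53, 2.20 and 2.41. Tumor and gland values overlapped in part. Of 12 antigen presentation genes 8 fell, among them the class II genes H2-Ab1 (3.18-fold) and Cd74 (2.39-fold), and the peptide transporter Tap1 rose (1.63-fold).

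Interferon response genes went up more often than down, 12 against 4 of 23, with a median of 0.6. Oas1a, which senses double-stranded RNA, ran from 1.23 to 2.67 with a median of 1.94 in Neu tumors and was -0.12, -0.25, 0.20, 0.13 and 0.29 in virgin glands. The rise was 3.54-fold (adjusted p = 9.86e-08) and set Neu tumors apart from Wnt-1 tumors too (3.52-fold, adjusted p = 5.32e-15). Against virgin glands the 2 Oas1a clones gave log2 differences of 2.62 and 1.03. Stat2 (1.99-fold) and Irf9 (1.7-fold), both parts of the factor that interferon activates, and Oas1g (2.14-fold) rose. Irf8, a factor of myeloid and B cells, fell 2.45-fold, though its 4 clones gave 0.19, -0.93, -4.16 and -0.25. Complement and acute phase genes were divided (4 up, 6 down of 13, and 2 up without virgin gland 13 or 27). The protease inhibitor A2m rose 7.23-fold with a wide range among tumors (-1.51 to 3.24 with a median of 0.66). Lbp rose 3.01-fold, with log2 differences of 0.41 and 2.77 on its 2 clones. C1ra, Saa3 and Cfb fell 5.7-fold, 4.79-fold and 3.15-fold.

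Genes of protein synthesis and turnover were examined next. Of 11 ribosomal protein genes 9 rose and none fell, with no change above 1.62-fold (Rpl5). Rpl5 ran from 0.67 to 1.72 with a median of 1.05 in Neu tumors and was 0.45, 0.42, 0.30, 0.37 and 0.50 in virgin glands. Of 19 genes of the nucleolus 9 rose (5 without virgin gland 29) with Pes1 at 1.52-fold, and 1 fell, Nop58, a core protein of small nucleolar ribonucleoproteins (1.48-fold). Without virgin gland 13, 2 of the 19 fell, and without Neu tumors 67 and 68, 3 fell. Of 16 translation genes 6 rose and 1 fell, with Eprs at 2.38-fold. Of 20 genes of protein folding in the endoplasmic reticulum 10 rose, led by calreticulin, Calr (5.19-fold), and 2 fell, Hyou1 (2.28-fold) and Derl1 (2.16-fold). The cochaperone Fkbp4 rose 4.45-fold and the small heat shock protein gene Cryab fell 7.09-fold. Proteasome genes changed rarely, 3 up and 1 down of 16 (2 down without virgin gland 17 or 27), below the shares for all genes.

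Several signaling lists had no common direction. Of 21 genes of the Wnt pathway 6 rose and 5 fell, with the receptor Fzd4 4.66-fold and the feedback gene Axin2 2.68-fold lower and the inhibitor Nkd1 4.27-fold higher. Axin2 ran from -1.93 to -0.03 with a median of -0.87 in Neu tumors and was 0.46, 0.57, 0.71, 0.68 and 0.06 in virgin glands. Nkd1, another gene known as a feedback target, ran from 1.98 to 3.03 with a median of 2.66 in Neu tumors and was 0.29, 0.86, 0.60, 0.39 and 0.65 in virgin glands. The pair thus moved in opposite directions, each without overlap. Of 13 Notch genes 3 rose, Hey1, the ligand Dll1 (2.4-fold) and Mfng (1.4-fold, with log2 differences of 1.20 and -0.22 on its 2 clones), and 3 fell, while the receptor Notch1 (0.15 ± 0.15) and the target Hes1 (0.03 ± 0.17) did not pass. Hes1 passed as a rise without virgin gland 28 (0.29). The 4 Notch1 clones disagreed, with log2 differences of 0.59, -0.87, 0.40 and 0.50. Of 9 p53 target genes 6 fell, Phlda3 (2.45-fold) and Sesn1 (2.01-fold) among them, 1 rose, Ei24 (1.81-fold), and Cdkn1a (p21) did not pass (0.35 ± 0.26). Glutathione and metal stress genes stood at 4 up and 5 down of 15, with heme oxygenase, Hmox1, 2.36-fold higher and the glutathione transferase Gsta4 4.39-fold lower.

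The carbonic anhydrases, enzymes that interconvert carbon dioxide and bicarbonate, held some of the largest changes in both directions. Of 9 measured, Car6 (43.1-fold), Car12 (28.1-fold) and Car8 (2.89-fold) rose, Car3 (267-fold), Car4 (6.79-fold), Car13 (4.84-fold) and Car1 (3.26-fold) fell, and Car2 (-0.08 ± 0.38) and Car5b (-0.22 ± 0.11) did not pass. Car12 ran from 1.14 to 3.01 with a median of 2.25 in Neu tumors and was -2.86, -3.05, -1.87, -2.45 and -2.48 in virgin glands. Car8, a family member without enzyme activity, ran from 0.64 to 2.22 with a median of 1.29 in Neu tumors and was -0.40, -0.28, -0.01, -0.13 and -0.12 in virgin glands. All 7 called members separated tumors from glands completely, Car6, Car12 and Car8 above and the others below. Car6, Car12 and Car8 were also higher than in Wnt-1 tumors (57.5-fold, 5.83-fold and 2.96-fold), and so were Car2 (4.47-fold) and Car5b (1.2-fold, adjusted p = 0.025), while Car3, Car4, Car13 and Car1 did not differ past the threshold from Wnt-1 tumors, with differences of -0.68 ± 0.37, -0.24 ± 0.44, 0.34 ± 0.23 and -0.22 ± 0.39. Without Wnt-1 tumors 42 and 49, Car1 passed as lower in Neu tumors (-0.52).

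The spread among the 12 Neu tumors was described on genes whose clones varied together. Among the 207 genes whose clones correlated above 0.7 over these arrays, the 8 of largest SD were Capn6 (SD 1.7), Ndrg4 (1.68), Cpxm1 (1.37), Col3a1 (1.15), Apob (1.15), Qtrt2 (1.03), Car3 (0.983) and Rap1gap (0.868). For 3 of them a single tumor set the spread. Ndrg4 was at 6.08 in tumor 67 and at most 1.20 in the other 11, Capn6 at 5.14 in tumor 67 and at most 0.48 in the others, and Qtrt2 at 3.18 in tumor 67 and at most -0.07 in the others. The carboxypeptidase-like Cpxm1 was high in both tumors of wide spread, at 2.46 in tumor 67 and 2.53 in tumor 68, and at most 0.25 in the other 10. Collagen III was graded instead: Col3a1 ran from -3.22 to 0.52 with a median of -1.05 with tumors 68, 75 and 67 at the top (0.52, 0.22 and 0.06) and tumor 72 at the bottom (-3.22). None of Capn6, Ndrg4, Cpxm1, Apob and Qtrt2 passed the test against virgin glands, and their differences were 0.30 ± 0.72, 0.66 ± 0.71, -1.24 ± 0.59, -0.27 ± 0.50 and -0.47 ± 0.44. Against virgin glands the 2 clones disagreed in sign for Apob (-1.39 and 0.85), Qtrt2 (0.55 and -1.49) and Capn6 (-0.17 and 0.77). Those of Ndrg4 and Cpxm1 agreed in sign. Without tumors 67 and 68, Cpxm1 and Qtrt2 passed as falls (-1.77 and -0.79), and Cpxm1 did so after quantile normalization (-1.32).

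**Figure D4:**
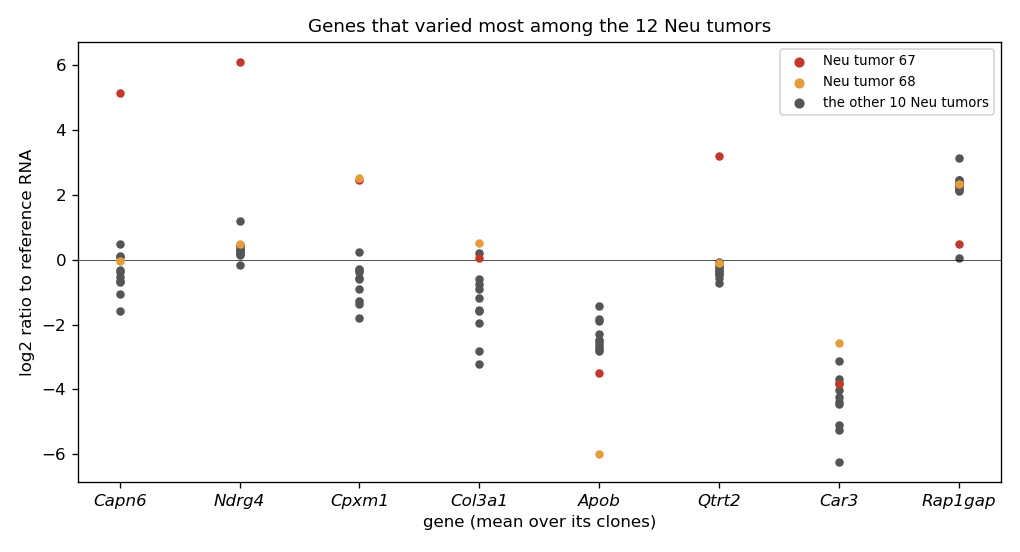
Log2 ratio to the reference RNA (y axis, mean over 2 clones) of the 8 genes of largest SD among the 12 Neu tumors (x axis); each point is 1 tumor, red for tumor 67, orange for tumor 68 and grey for the other 10. Tumor 67 alone set the spread of Capn6, Ndrg4 and Qtrt2 (5.14, 6.08 and 3.18), tumor 68 lay lowest for Apob (-5.98), and tumor 72 lay lowest for Col3a1 and Car3 (-3.22 and -6.24).

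Set against the 23 Wnt-1 tumors, 1788 genes (23.0%) were higher and 1767 (22.8%) lower in Neu tumors, and at least 3-fold changes were 105 (1.35%) and 79 (1.02%). Without Wnt-1 tumors 42 and 49, 1857 genes were higher and 1946 lower. Of the 12 largest rises over virgin glands with several clones, all were also higher in Neu than in Wnt-1 tumors, Ncald by 15.3-fold, Socs2 by 11.3-fold, Hey1 by 7.34-fold, Rap1gap by 5.85-fold and Spag5 by 6.4-fold among them. The largest rises and falls were picked on the same Neu tumor arrays, which makes the same direction against Wnt-1 tumors more likely. Among the 12 largest falls the picture was mixed. Car3, Fabp4, Lpl, Ces1c and Pparg did not differ past the threshold between the tumor types (-0.22 ± 0.29 for Fabp4, -0.15 ± 0.10 for Lpl, 0.27 ± 0.25 for Ces1c and -0.19 ± 0.17 for Pparg, which passed at -0.33 without Wnt-1 tumors 42 and 49), Cav1, Agmo, Col3a1, Ahnak and Glul were lower in Neu tumors (3.22-fold, 1.6-fold, 2.84-fold, 2.58-fold and 3.01-fold), and Scd1 and Ephx2 were higher (1.6-fold and 2.6-fold). By list, 12 of 15 myoepithelial genes, 13 of 25 endothelial genes and 13 of 19 nucleolar genes were lower in Neu than in Wnt-1 tumors, and 16 of 23 interferon genes, 11 of 22 epithelial genes and 10 of 22 milk and alveolar genes were higher. Of mitosis and DNA replication genes, 1 higher and 6 lower of 26, and 1 higher and 7 lower of 27, were called against Wnt-1 tumors.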

How the data were processed

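RNA of 12 Neu tumors and 5 virgin glands was measured on 2-colour cDNA arrays of 15360 clones (Cy5 sample, Cy3 common reference). The deposited values are log2 ratios, normalized within each array by the authors with ArraySuite from scans scored for spot quality; no raw intensities were used here. The log base was checked on the smallest ratios, which are whole multiples of 0.0001. The values on the 17 arrays were complete. A clone was named only where it carried 1 symbol (11860 clones, 7766 genes), and clones of a gene were averaged.

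Groups were compared with limma 3.58.1 (R 4.3.3, lmFit and eBayes) on all clones or genes, with Benjamini-Hochberg adjustment and a threshold of 0.05. The fit was tested on simulated data with independent noise and few changed features. It recovered 65.7%, 86.6% and 97% of the genes changed by 1.5-fold, 2-fold and 4-fold. For clones the shares were 46.3%, 76.1% and 89.4%. The real arrays hold far more changes, so these shares need not apply to them. Named genes were the largest rises and falls with several concordant clones (12 each) or 1 clone (5 each), up to 6 members per list of smallest adjusted p, cell type markers, all ErbB and carbonic anhydrase members, and the 8 most variable genes with clones correlating above 0.7. Genes outside this rule, such as list members that did not pass the test, were chosen after their values were seen. Members and lists were chosen with earlier results of these data known. Precision is limited by the number of arrays, with 5 in the smaller group. Alternatives tried were median centring, quantile normalization, other fits, removal of extreme ratios, a permutation test modeled on that of the study with 100 regroupings, and leaving out each virgin gland or, chosen after seeing the data, Neu tumors 67 and 68 or Wnt-1 tumors 42 and 49. Promoter windows came from RefSeq (GRCm38.p6) and were matched by symbol.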

Additional observations from a re-analysis of the deposited data

Results flagged for a closer look

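Among the 237 genes named above, 17 had 1 virgin gland apart from the other 4 (gap over range above 0.71, Dixon's critical value for 5 samples). Chance flags about 1 in 20 such groups. Virgin gland 13 was highest for A2m (-1.59) and Pck1 (1.63), and lowest for Cldn5 (-0.38), Cldn7 (-0.04), Cpxm1 (0.34) and Tgfbi (0.59). Virgin gland 17 was lowest for 3 genes of fatty acid and acetyl-CoA synthesis, Acly (-0.27), Acss2 (0.52) and Fasn (0.54), and highest for Dcaf12 (-2.29) and Elf5 (-0.02). Virgin gland 27 was highest for Ckm (2.44). Virgin gland 28 was highest for Hes1 (1.38) and Nos3 (1.44), and virgin gland 29 was highest for Lrig1 (0.60) and Sftpc (-2.30) and lowest for Etv4 (-0.50).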

How the results depend on the processing

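No paired analysis was possible because the Neu tumors and the virgin glands share no sample number. A permutation test modeled on that of the study, with 100 regroupings pooled over clones and P under 0.001, called 1966 clones higher and 2585 lower in Neu tumors, against 3831 and 4192 by limma. The study itself used many more regroupings, so these counts are not from its own procedure. The other counts over all clones or genes stayed within 1.5 times of the value given. Median centring and quantile normalization moved the median gene difference to 0.055 and 0.075 and the share of calls that were higher to 53.2% and 54.9%, from 48.2%.

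Of 1896 values of single genes under the alternatives, 1856 kept their direction and side of the threshold and 23 changed sign. Under quantile normalization the difference became 0.50 for Agt, 0.29 for Alas2, 0.57 for Apob, 0.69 for Car2, 0.06 for Col1a1, 0.02 for Krt14, 0.48 for Scgb1a1 and 0.04 for Sftpc. Alas2 and Scgb1a1 are called as falls above. The cause was not tested. Without Neu tumors 67 and 68, Agt became 0.08, Apob 0.13, Capn6 -0.20 and Car2 0.09. Over the fits that each left out 1 virgin gland, sign changes occurred in Adam17 (-0.04 to 0.18), Agt (-0.17 to 0.04), Car2 (-0.25 to 0.08), Col1a1 (-0.50 to 0.06), Hes1 (-0.08 to 0.29) and Pck1 (-0.26 to 0.16), none of which passed the test with all 5 glands. Of 704 values of list counts, 35 moved by more than 1.5 times. Those that started above 5 were the milk and alveolar genes that fell (8, and 5 after quantile normalization), the nucleolar genes that rose (9, and 5 without virgin gland 29) and the matrix genes that rose (6, and 3 without virgin gland 13), and the others started from counts of 5 or fewer.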
